A study of Mus musculus with 11 samples.

Results

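The genes described here belong to the SUMO system, the enzymes that attach the small ubiquitin-like modifier SUMO to other proteins and take it off again. They are Sae1 and Uba2, which together form the SUMO-activating enzyme (E1), the modifiers Sumo2 and Sumo3, and the SUMO proteases Senp1, Senp2, Senp3 and Senp6. Members were the probesets that the array's annotation assigns to 1 of these 8 symbols, and the level of a gene was the median log2 value over its probesets. By this rule 7 of the 8 genes had a level, from 87 of the 211507 probesets used, among 20352 genes in all; Uba2 had no probeset under its symbol in the annotation used and was not analysed here.

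The study measured 5 keratoacanthomas, squamous skin tumours built of keratinocytes, and 6 normal skins of mice on single-colour whole-transcript arrays. All 5 tumours came from mice that carry both the K14-Cre and the Zmiz1 transgene. Of the normal skins, 1 and 2 came from such double transgenic mice, 3 and 4 from K14-Cre transgenic mice and 5 and 6 from Zmiz1 transgenic mice, so that every group carries at least 1 transgene and none is wild type. In K14-Cre mice the keratin 14 promoter drives Cre recombinase; it is active in the basal keratinocytes of the epidermis. The labels used here give no age or strain and do not say that each piece is from its own animal; p-values thus measure only the spread between these arrays, which may be technical.

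SUMO is activated by the E1 pair of Sae1 and Uba2, passed on and joined to lysines of target proteins, often with the help of E3 ligases such as the PIAS proteins and Ranbp2. Sumo2 and Sumo3 encode nearly identical modifiers that can form chains, and the Senp proteases process SUMO precursors and release SUMO from its targets. Zmiz1, the transgene, encodes a PIAS-like protein with a zinc finger of the type found in SUMO ligases, and in cultured human keratinocytes sumoylation changes as the cells differentiate.

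Krt14, the basal keratin, stood at 11.2 to 11.5 in the tumours and 9.64 to 10.6 in normal skin, and Krt10, the suprabasal keratin, at 11.7 to 11.9 in the tumours and 11.6 to 12.0 in normal skin, so that defining keratinocyte markers were bright on every array. The Zmiz1 gene level was 8.03 to 8.27 in the tumours and 7.15 to 7.91 in normal skin (log2 difference 0.65, limma adjusted p = 0.00452); the mean over its probesets differed by 1.36 (adjusted p = 2.67e-07). Over all probesets, pairs of tumours correlated at 0.943 to 0.960, pairs of normal skins at 0.890 to 0.950, and a tumour with a skin at 0.801 to 0.915. Hair keratins set keratoacanthoma 4 and normal skins 1 and 3 apart, with list means of 8.42, 9.56 and 9.20 on the log2 scale, against 5.67 to 6.07 on the other arrays. The number of arrays limits the precision of all values.

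The SUMO genes were higher in keratoacanthoma. Of the 7 measured genes, 6 passed the limma test as higher (Benjamini-Hochberg adjusted p below 0.05 over all 20352 genes) and 0 as lower, where 14.5% of all genes were called higher. With the mean over probesets in place of the median 7 of 7 were called, where 3667 of all genes were, against 2959 with the median. With quantile normalization 7 of 7 were called, where 2975 of all genes were. The 5 tumours lay above all 6 normal skins in the same 6 genes, a separation seen in 9.66% of all genes, and Sumo2 was the gene outside both counts. The median log2 difference was 0.80 over the 7 genes and -0.04 over all genes. The members, and the lists below, were chosen with earlier results of these data known. Their counts beside the shares of all genes are therefore a description and no test. Without the 3 arrays high in hair keratins, a choice made after seeing the data, 6 of 7 genes were again called higher, where 13.0% of all genes were. In whole tissue, more cells that express a gene and more RNA per cell cannot be told apart.

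**Figure D1:**
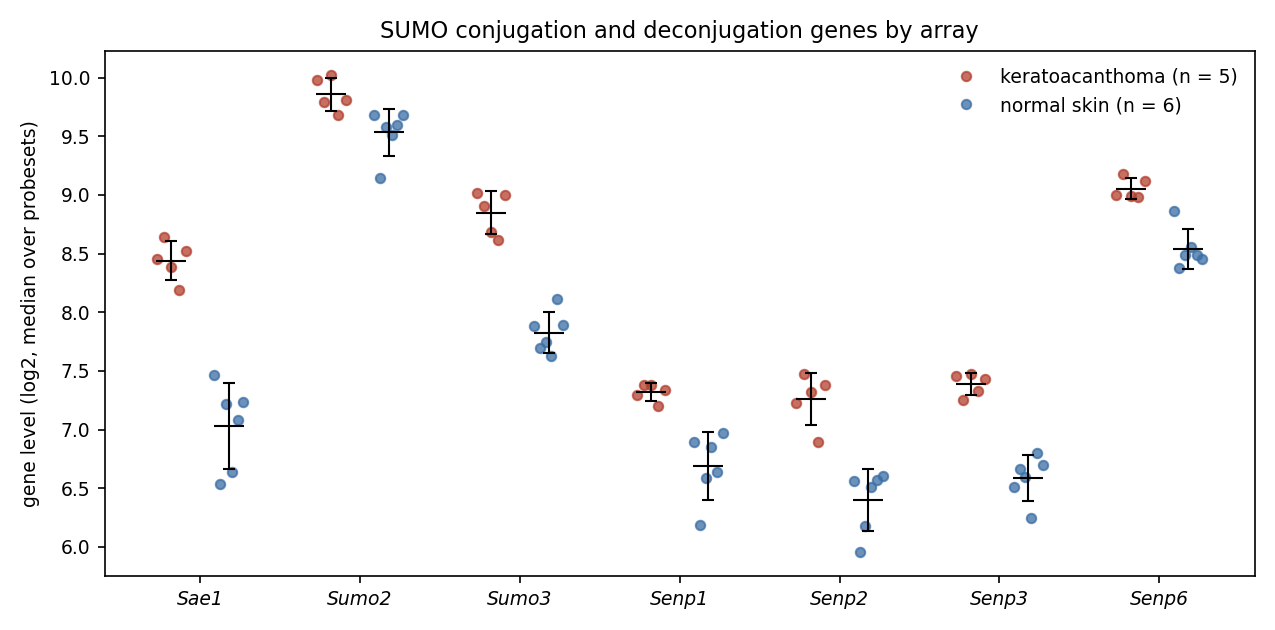
Gene levels (log2, median over probesets) of the 7 measured SUMO genes, with a point per array, 5 keratoacanthomas (red, left of each pair) and 6 normal skins (blue, right); black marks are the mean and SD. For Sae1, Sumo3, Senp1, Senp2, Senp3 and Senp6 all red points lie above all blue points, and for Sumo2 the groups meet at 9.69.

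Sae1, the subunit of the activating enzyme that helps form the SUMO adenylate, changed most. In keratoacanthomas 1 to 5 its level was 8.45, 8.64, 8.39, 8.19 and 8.52, against a lowest, median and highest of 6.54, 7.15 and 7.47 in normal skin. The groups did not overlap, and the lowest tumour, keratoacanthoma 4, stood 0.72 above the highest skin, normal skin 1. The tumours averaged 8.44 ± 0.17 (SD, n = 5) and the normal skins 7.03 ± 0.37 (SD, n = 6), a log2 difference of 1.41 (SE 0.17, limma adjusted p = 7e-05), or 2.65-fold. By size of rise it ranked 305 of 20352 genes. All 9 Sae1 probesets were called higher on their own, where 8.29% of all probesets were, with differences of 0.61 to 1.86.

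The Sae1 probesets all moved the same way. In 8 of the 9 probesets the tumours lay above all normal skins, a share that was not counted over all probesets. Probeset 10560268, for example, read 6.07 to 6.53 in the tumours and 3.42 to 5.17 in normal skin. Probeset 10560266 changed less than the median of the gene (-0.74, limma adjusted p = 0.0366), and was itself higher by 0.67 (adjusted p = 0.038).

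Sumo3, a modifier of the chain-forming kind, was next in size by gene level. Its level was 9.02, 8.91, 8.69, 8.62 and 9.002 in keratoacanthomas 1 to 5, against a lowest, median and highest of 7.63, 7.82 and 8.11 in normal skin. No tumour overlapped with a normal skin. The tumours averaged 8.85 ± 0.18 (SD, n = 5) and the normal skins 7.83 ± 0.17 (SD, n = 6), a log2 difference of 1.02 (SE 0.12, limma adjusted p = 5.96e-05), or 2.03-fold. Only 2 of its 5 probesets were called on their own, where 8.29% of all probesets were called higher. They were 10364290 with a difference of 1.40 and 10364289 with 0.90. Probeset 10364291 read 11.9 to 12.2 in the tumours and 11.6 to 12.1 in normal skin, differed by 0.07 (adjusted p = 0.796) and changed less than the gene's median (-0.95, adjusted p = 0.0106). In every tumour the gene's median was the value of 10364290. In normal skins 1, 2 and 3 it was that of 10364288, which differed by 0.28 on its own. The size of the Sumo3 difference therefore rests on the summary. The mean over probesets gave 0.57 (adjusted p = 0.00128), less than 0.82 for Senp2 and 0.62 for Senp1 by the same summary.

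Sumo2, the other modifier, had a weaker basis. The rule left it a lone probeset, 10520125, because 5 more probesets that name Sumo2 also name 2 to 7 further symbols, among them the Sumo2 pseudogene Smt3h2-ps2 and gene models such as Gm10241. In number order that lone probeset stands between those of Nupl2 and Nos3, genes that RefSeq places on another chromosome than Sumo2, whereas the 5 shared probesets stand together between Hn1 and Gga3, on the same chromosome as Sumo2. Which locus it reads was not tested, and copies of near-identical sequence make all 6 probesets uncertain.

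Sumo2 read 9.98, 9.79, 10.03, 9.69 and 9.81 in keratoacanthomas 1 to 5, against a lowest, median and highest of 9.15, 9.59 and 9.69 in normal skin, so that the lowest tumour met the highest skins. It differed by 0.32 on the log2 scale (SE 0.12, 95% interval 0.07 to 0.58), which did not pass (limma adjusted p = 0.0587). It passed by a small margin with quantile normalization (0.35, adjusted p = 0.0467) and, at the same difference, in the fit on means over probesets (adjusted p = 0.0319). When probesets naming several genes entered the fit, 0 of the 5 shared Sumo2 probesets passed, with differences of -0.02 to 0.43 and a smallest adjusted p of 0.0829 (1 of 5 at an unadjusted p below 0.05).

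The proteases Senp1 and Senp2, which mature SUMO precursors and release SUMO from its targets, were both higher. Senp2 stood at 7.22, 7.47, 7.32, 6.89 and 7.38 in keratoacanthomas 1 to 5, against a lowest, median and highest of 5.96, 6.54 and 6.61 in normal skin, a log2 difference of 0.86 (SE 0.15, limma adjusted p = 0.00089). Senp1 stood at 7.30, 7.38, 7.38, 7.21 and 7.34 in the tumours, against 6.19, 6.75 and 6.97 in normal skin, a difference of 0.63 (SE 0.13, adjusted p = 0.00389). In both genes every tumour exceeded every skin, with a narrow margin of 0.23 for Senp1 and 0.29 for Senp2. Of the 18 Senp2 probesets 16 lay above 0 and 7 were called higher. Of the 20 Senp1 probesets 19 lay above 0 and 4 were called. Over all probesets 8.29% were called higher, and the share above 0 was not counted. No probeset of either gene was called lower, although the Senp2 probesets 10434652 and 10434655 differed by -0.11 and -0.21 and changed less than their gene (adjusted p = 0.0135 and 0.00645).

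Senp3, a protease of the nucleolus that prefers SUMO2 and SUMO3, was higher in a more uneven way. Its level was 7.46, 7.26, 7.47, 7.33 and 7.43 in keratoacanthomas 1 to 5, against a lowest, median and highest of 6.25, 6.63 and 6.80 in normal skin. The groups were apart by 0.45, and the levels differed by 0.80 (log2, SE 0.11, limma adjusted p = 0.000208). Its 8 probesets were uneven: the 4 from 10387561 to 10387564 differed by 0.84 to 1.56, and the remaining 4 by -0.72 to 0.13. In probeset 10387563 the tumours read 8.10 to 8.52 and normal skin 6.43 to 7.36, while in 10387560 the tumours read 11.3 to 11.5 and normal skin 11.3 to 11.7. Probesets 10387560 and 10387565 changed less than the gene (adjusted p = 0.00761 and 0.0126). The mean over probesets gave 0.47 (adjusted p = 0.0013) and the median without dim probesets 1.36 (adjusted p = 3.88e-05), so that the direction held and the size did not.

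Senp6, a protease that trims SUMO2 and SUMO3 chains, had the smallest difference that passed. It stood at 8.998, 9.18, 8.99, 8.99 and 9.11 in keratoacanthomas 1 to 5, against a lowest, median and highest of 8.38, 8.49 and 8.86 in normal skin, where normal skin 1 was the array at 8.86. The groups were 0.12 apart and differed by 0.51 (log2, SE 0.10, limma adjusted p = 0.00271). Of its 26 probesets 20 lay above 0 and 6 were called higher, where 8.29% of all probesets were called. The share above 0 was not counted over all probesets. The largest difference was that of 10587426 at 1.92. That probeset read 7.69 to 9.18 in the tumours and 5.27 to 8.25 in normal skin, so that its groups overlapped. In exact two-sided permutation tests of each gene, the 6 genes without overlap gave p = 0.0043, the smallest that 462 splits allow. Groups without overlap always give this smallest value. For these 6 genes the test therefore adds nothing to the separation itself, which was seen in 9.66% of all genes. Sumo2, whose groups met, gave p = 0.013 in the exact two-sided permutation test.

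**Figure D2:**
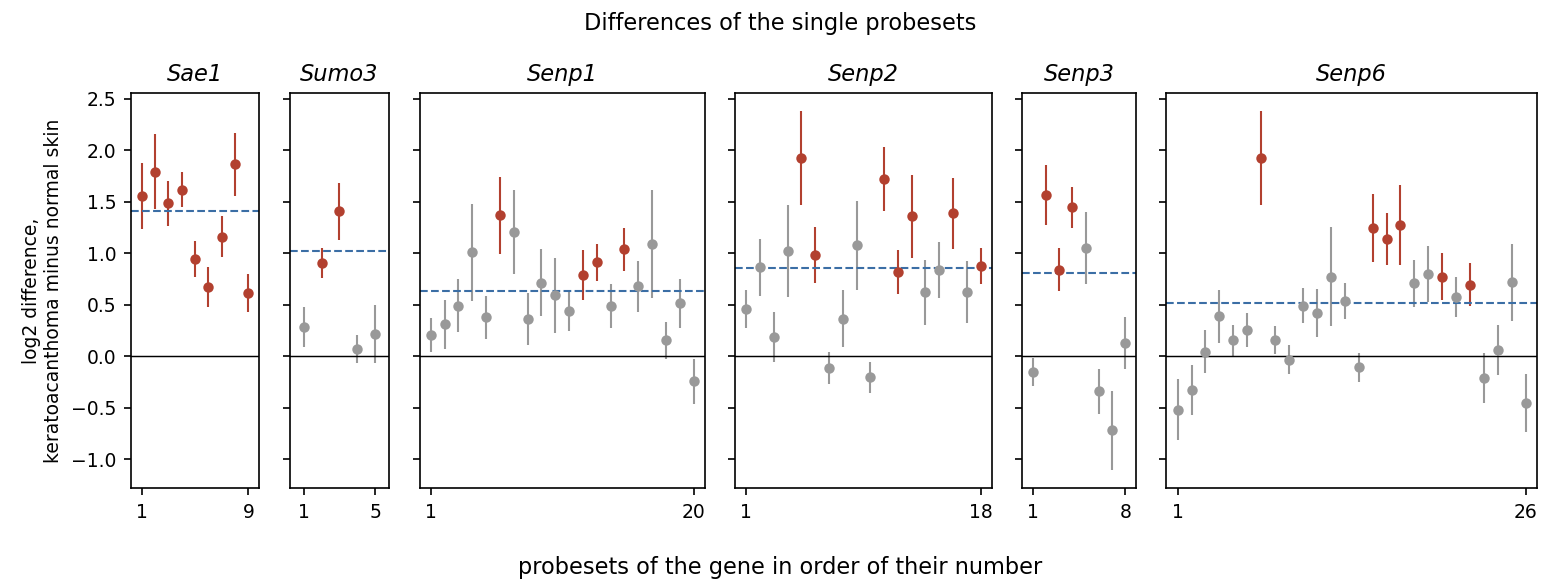
Log2 difference (keratoacanthoma minus normal skin, y axis) of each probeset of the 6 genes called higher, in order of probeset number (x axis), with the SE as bars. Red points passed at an adjusted p below 0.05 and the blue dashed line is the difference of the gene level. All 9 Sae1 points are red, whereas Sumo3 has 2 red points of 5 and Senp3 3 of 8. Over all probesets 8.29% were called higher.

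Over all 87 probesets of the 7 genes, 31 were called higher, where 8.29% of all probesets were, and 0 lower, where 6.98% were. Among the 86 probesets of genes with at least 4, 7 changed less than their gene and 0 more. Of all such probesets 4.10% were called in either direction. The relative value is the probeset's difference less that of the gene level. That level differed by 1.02 in Sumo3 and 0.80 in Senp3, above the median probeset differences of 0.28 and 0.48, which lowers their relative values. In Sae1 it differed by 1.41, below the probeset median of 1.48. The 9 brightest probesets, with mean values of 10 or more, differed by -0.21 to 0.49 and 0 of them were called (limma; 1 of 9 at an unadjusted p below 0.05). In bands of mean values below 6, from 6 to 8 and from 8 to 10, the median differences were 0.79, 0.74 and 0.69. The part of signal level in these differences was not tested.

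By gene level (median over probesets), the 3 largest rises among members with a promoter in the RefSeq table (build GRCm38.p6) were those of Sumo3, Senp2 and Senp3. Their promoters are shown because these genes were higher together. Each run covers 250 bases before to 50 after the outermost start, 5′ to 3′ on the strand of the gene, in lower case except that capitals mark a match to a searched motif, which Senp2 alone of the 3 holds (the NRF1 core below, on the strand of the gene, at position -123 from the start).
Sumo3, chr10:77605847-77606146, plus strand: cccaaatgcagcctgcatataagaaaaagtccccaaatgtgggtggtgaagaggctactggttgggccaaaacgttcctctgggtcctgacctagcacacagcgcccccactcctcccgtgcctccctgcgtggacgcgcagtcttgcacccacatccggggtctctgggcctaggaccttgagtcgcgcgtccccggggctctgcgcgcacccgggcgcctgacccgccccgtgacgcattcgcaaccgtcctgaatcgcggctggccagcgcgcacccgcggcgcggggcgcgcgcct
Senp2, chr16:22009234-22009533, plus strand: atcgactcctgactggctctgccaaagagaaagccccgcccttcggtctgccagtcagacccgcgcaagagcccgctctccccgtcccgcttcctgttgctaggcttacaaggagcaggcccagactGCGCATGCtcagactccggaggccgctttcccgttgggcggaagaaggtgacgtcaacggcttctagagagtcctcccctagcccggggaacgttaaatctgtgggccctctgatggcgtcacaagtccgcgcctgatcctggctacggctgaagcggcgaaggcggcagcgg
Senp3, chr11:69682035-69682334, minus strand: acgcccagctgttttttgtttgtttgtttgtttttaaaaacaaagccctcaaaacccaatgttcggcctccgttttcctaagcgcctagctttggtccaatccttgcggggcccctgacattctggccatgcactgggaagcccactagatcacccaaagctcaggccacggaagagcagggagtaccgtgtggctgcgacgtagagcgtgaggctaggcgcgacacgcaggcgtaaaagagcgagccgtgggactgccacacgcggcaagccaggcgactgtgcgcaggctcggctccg
The motifs below were searched on both strands in the 11 windows of 7 members with an entry (all but Sae1). The E-box CACGTG was in 0 of the 11 and in 7.15% of all 32851 windows, and the E2F motif TTTCCCGC in 0 and 1.07%. The ETS motif CCGGAAGT was in 1 window, that of the unmeasured Uba2, and in 3.89% of all windows. GCGCATGC, a core of the NRF1 motif, was in 1 window, that of Senp2, and in 2.71% of all windows; this core was taken after a longer form of the motif had matched no member window. The GC content of the 3 windows shown was 67.7%, 63.7% and 58.0%, against a median of 52.7% over all windows. A missing match says only that these letters are not in the window.

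Against normal skin of the same double transgenic genotype the direction was the same. In a model of 4 groups, 5 of the 7 genes were higher in keratoacanthoma (limma), where 10.6% of all genes were. Sae1 differed by 1.44 (SE 0.24, adjusted p = 0.0034), Sumo3 by 1.06 (adjusted p = 0.00166), Senp2 by 1.00 (adjusted p = 0.00771), Senp3 by 0.80 (adjusted p = 0.00362) and Senp1 by 0.78 (adjusted p = 0.0166). Senp6 differed by 0.43 (adjusted p = 0.0622) and Sumo2 by 0.44 (adjusted p = 0.083), neither past the threshold. These contrasts rest on 2 skins that were unlike each other in the members, since Sae1 stood at 7.47 in normal skin 1 and 6.54 in normal skin 2, and Senp1 at 6.89 and 6.19. With either skin left out the normal double transgenic arm is a single array, which is assumed to vary like the other groups of the model. Without normal skin 2, where 2.47% of all genes were called higher, Sae1 (0.97, adjusted p = 0.0482), Sumo3 (0.96, 0.0273) and Senp3 (0.88, 0.0245) were called, and Senp2 (0.69, 0.114) and Senp1 (0.43, 0.21) were not. Without normal skin 1, where 12.5% of all genes were called higher, 7 of 7 were; the skin then left, normal skin 2, was the lowest skin in 5 of the 7. This comparison shares its tumours and both its skins with the one above.

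Tumour-free skin of double and single transgenic mice showed no called difference in these genes. Of the 7, 0 passed (limma, smallest adjusted p = 0.725, and 0 at an unadjusted p below 0.05), where 0.0147% of all genes, 3 of 20352, were called. Sae1 differed by -0.04 (95% interval -0.59 to 0.51), Sumo3 by -0.06 (-0.40 to 0.29) and Senp3 by 0.00 (-0.31 to 0.31). The largest difference in size was that of Senp1 at -0.23 (-0.65 to 0.20). The intervals for Sae1, Sumo3 and Senp3 lie below the differences of 1.41, 1.02 and 0.80 between keratoacanthoma and normal skin. With 2 against 4 skins few genes of any kind passed, 3 of 20352. The lack of a call therefore does not show equal levels.

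Within the groups most members ran together, Senp3 aside. Of 21 pairs of genes, 18 had a positive correlation of their deviations from the group means over the 11 arrays, with a median of 0.54 and a range of -0.42 to 0.83, given as a description since the arrays share a normalization; 50.2% of all gene pairs had a positive one. The 3 negative pairs were those of Senp3 with Senp6 (-0.42), Senp1 (-0.29) and Senp2 (-0.08), and the pairs without Senp3 lay between 0.21 and 0.83. Keratoacanthoma 4 was the lowest tumour in 6 of the 7 genes, whereas it was the lowest tumour in 20.6% of all genes. Normal skin 2 was the lowest skin in 5 of the 7, against 20.4% of all genes. The spread was smaller in the tumours in 6 of the 7 genes (Sae1 SD 0.17 in keratoacanthoma and 0.37 in normal skin, Senp1 0.08 and 0.29), as it was in 70.3% of all genes.

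**Figure D3:**
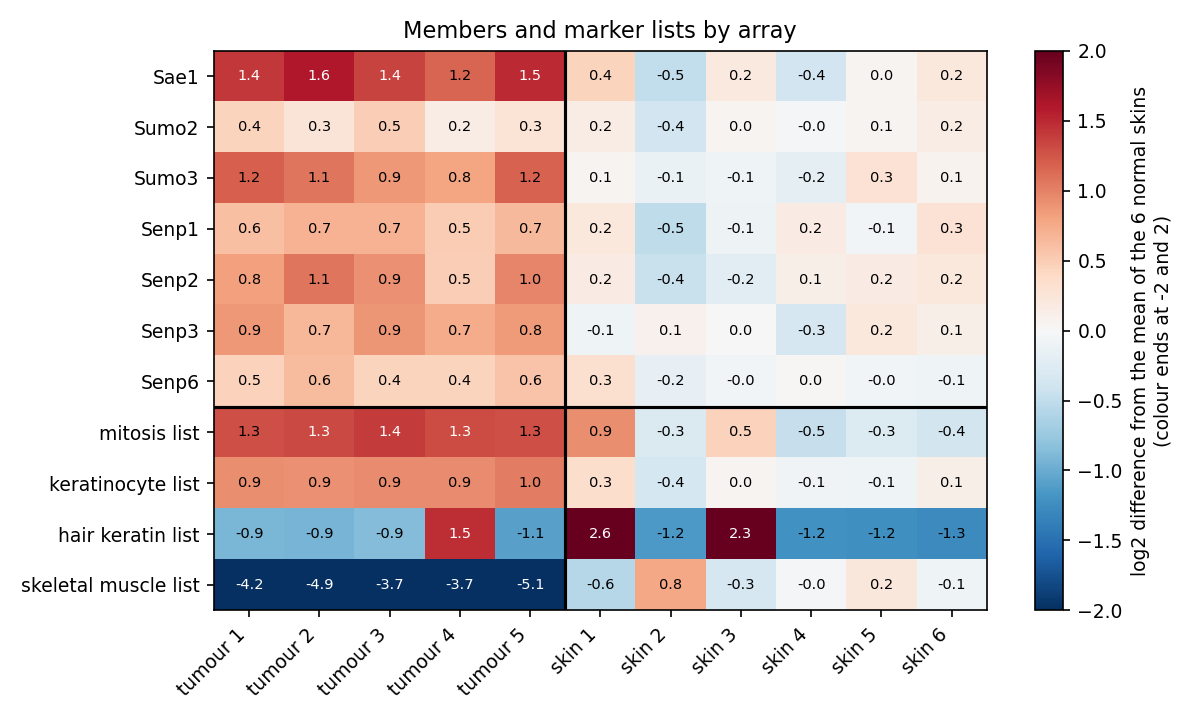
Log2 difference of each array from the mean of the 6 normal skins for the 7 SUMO genes (upper rows) and for the mean of 4 marker lists (lower rows), with the 5 keratoacanthomas left of the line and the 6 normal skins right of it. Red is higher and blue lower, with colours ending at -2 and 2; the SUMO rows are red in every tumour, and normal skin 2 is blue in 6 of the 7.

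The means of marker lists for dividing cells, keratinocytes and muscle differed between the same groups. Over all genes 14.5% were called higher and 10.8% lower. The mean of 25 measured mitosis genes was 7.34 to 7.45 in the tumours and 5.59 to 6.98 in normal skin, with 24 of 25 higher. That of 20 keratinocyte genes was 10.36 to 10.46 in the tumours and 9.09 to 9.80 in normal skin, with 11 higher and 4 lower. The keratinocyte genes differed by -0.79 to 4.34 (median 0.64), with Krt6b at 4.34 and Krt16 at 3.68 the largest. The mean of 22 skeletal muscle genes was 5.45 to 6.83 in the tumours and 9.92 to 11.3 in normal skin, with 22 of 22 lower. Normal skin 2, low in the SUMO genes, had the highest muscle mean (11.3) and the lowest keratinocyte mean (9.09). Normal skins 1 and 3 had the highest mitosis means of the skins, 6.98 and 6.52 against 5.59 to 5.79 in the other 4. Normal skin 1 was the highest skin in Sae1, Senp6 and, level with normal skin 6, Sumo2, and normal skin 3 in none of the 7. Fat cell genes (5.95 to 6.75 in the tumours, 7.26 to 8.19 in normal skin) had 9 of 13 lower and 1 higher, fibroblast genes (7.005 to 7.89, against 8.04 to 8.81) 6 of 12 lower, leukocyte genes (6.35 to 6.94, against 6.10 to 6.57) 3 of 17 higher and 4 lower, and endothelial genes (6.17 to 6.55, against 6.12 to 6.50) 3 of 10 higher and 1 lower. The leukocyte genes differed by -1.33 to 4.26 (median -0.28), with S100a8 at 4.26 and Cxcr2 at 3.69 the largest. The part of these cell types in the SUMO differences was not tested.

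Among the other genes of the pathway some were higher in keratoacanthoma, and Pias3 alone was called lower. The list held 19 measured genes. Among the 19, 8 were higher, where 14.5% of all genes were, 1 was lower, where 10.8% were, and 10 did not pass; their median difference was 0.32. Zmiz1, the transgene, is 1 of the 8.

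Rnf4, the ubiquitin ligase that recognises SUMO chains, was higher by 0.83 (SE 0.11, limma adjusted p = 0.000163). It stood at 9.73, 9.52, 9.46, 9.48 and 9.33 in keratoacanthomas 1 to 5, against a lowest, median and highest of 8.46, 8.70 and 8.85 in normal skin. Rnf111, another ligase directed to SUMO chains, was higher by 0.62 (adjusted p = 0.00331), at 7.28 to 7.70 in the tumours and 6.58 to 7.21 in normal skin. For both ligases the groups did not overlap. Against normal skin of the same genotype alone, the call of Rnf111 was lost (0.56, adjusted p = 0.089).

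Ranbp2, a nucleoporin with SUMO ligase activity, was higher by 0.82 (SE 0.14, limma adjusted p = 0.000989), at 8.24 to 8.65 in the tumours and 7.14 to 7.96 in normal skin, without overlap, and by 0.53 with the mean over probesets (adjusted p = 0.000829). The remaining rises were smaller, and their groups overlapped. They were the SUMO proteases Desi1 (0.56, adjusted p = 0.00806), Senp5 (0.53, 0.0304) and Uspl1 (0.53, 0.0167) and the ligase Nsmce2 (0.43, 0.029). Desi1 lost its call against normal skin of the same genotype alone (0.48, adjusted p = 0.145). Nsmce2 lost its call without keratoacanthoma 2, 3 or 5 or normal skin 1, 2 or 3 (adjusted p up to 0.0783). Senp5 lost its call without keratoacanthoma 1, 3, 4 or 5 or normal skin 2, 3 or 6 (up to 0.0729). Over all 23 alternatives each kept its call in 14, with limma adjusted p up to 0.101 for Nsmce2 and 0.22 for Senp5. Against normal double transgenic skin in the 4-group model Senp5 differed by 0.46 (limma adjusted p = 0.214). Uspl1 lost its call against normal single transgenic skin alone (0.45, adjusted p = 0.0682) and without the arrays high in hair keratins (0.52, 0.0698). It overlapped through normal skin 5, at 7.08, against 6.22 to 6.48 in the other skins and 6.89 to 7.10 in the tumours.

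Of the PIAS ligases, 1 of 4 passed. Pias3 was lower by 0.63 on the log2 scale (-0.63, SE 0.16, limma adjusted p = 0.0128), at 5.18 to 5.62 in the tumours and 5.61 to 6.40 in normal skin, with normal skin 1 inside the range of the tumours; the call was lost without dim probesets (-0.23, adjusted p = 0.379), and against normal skin of the same genotype alone (-0.40, adjusted p = 0.163). Pias1 (0.32, adjusted p = 0.184), Pias2 (0.14, 0.389) and Pias4 (0.04, 0.811) did not pass. Zmiz2, the relative of the transgene, differed by -0.11 (0.476), and Senp7, the protease most like Senp6, by -0.16 (95% interval -0.45 to 0.12, adjusted p = 0.407).

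**Figure D4:**
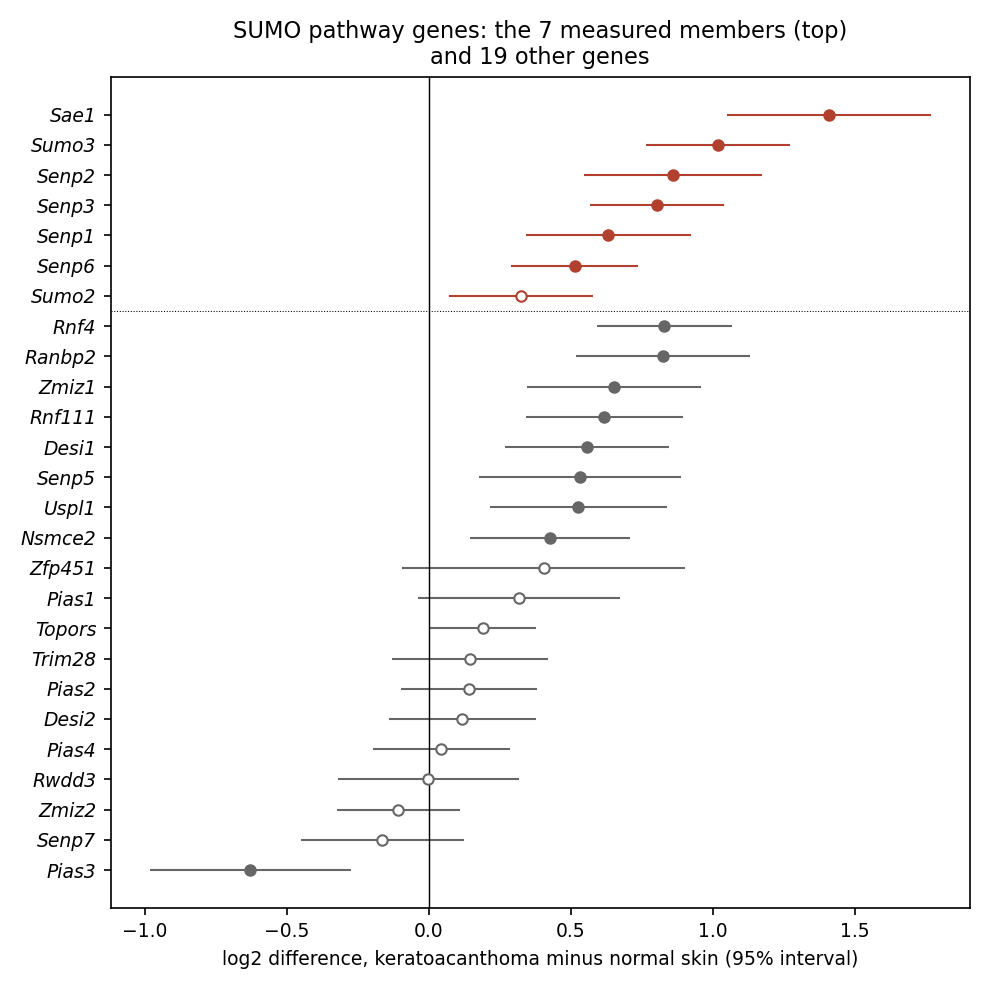
Log2 difference (keratoacanthoma minus normal skin, x axis) with 95% intervals for the 7 measured members (red, top) and 19 other SUMO pathway genes (grey); filled points passed at an adjusted p below 0.05. Filled points lie right of 0 for 6 members and 8 other genes, and left of 0 for Pias3 alone.

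Targets of SUMO and enzymes of related modifiers were counted beside them. Over all genes 14.5% were called higher and 10.8% lower, with a median difference of -0.04. Of 17 measured genes for SUMO targets and nuclear body proteins, 8 were higher and 0 lower (median 0.51), with Top2a, a topoisomerase of dividing cells that is also a sumoylated protein, at 1.89 and the repressor Etv6 at 1.01. Of 16 measured genes of other ubiquitin-like modifiers, 8 were higher and 0 lower (median 0.41), with the interferon-induced modifier Isg15 at 2.46 and Uba6, an E1 for ubiquitin, at 1.14. Nae1 and Uba3, the E1 pair for the modifier NEDD8, differed by 0.59 and 0.55, against 1.41 for Sae1. The difference between these lists and the SUMO genes was not tested.

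The genes whose levels ran most like each member over the 11 arrays were found by Pearson's r, a description that the gap between the groups raises. For Sae1 they were Baz1a, Gnl3 and Ephx3 (r = 0.992, 0.991 and 0.991, and 0.96, 0.93 and 0.92 for deviations from the group means). Senp2 ran closest to Slmap, Kif5b and Trim33 (0.991, 0.982 and 0.981), Sumo3 to Ankib1, Pabpn1 and Utp15 (0.983, 0.981 and 0.979), and Senp1 to H2aj, Tmed5 and Lypd5 (0.981, 0.978 and 0.974). Nearest to Senp6 were Nol11, Sec23b and Hmmr (0.983, 0.983 and 0.975), to Senp3 Taf4b, Cltc and Hspa9 (0.972, 0.967 and 0.967), and to Sumo2 Gpr132, Ppip5k2 and Pabpc1 (0.967, 0.962 and 0.962). For deviations from the group means the values were lower for the genes nearest to Senp3 (0.745, 0.746 and 0.678). For those nearest to Sumo3 they were 0.917, 0.769 and 0.743, and for those of the remaining members 0.87 to 0.96. No member was among the 3 nearest genes of another.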

How the data were processed

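Per the labels, total RNA of snap-frozen tissue was SPIA-amplified, and fragmented cDNA with a biotin label was put on arrays. The authors deposited log2 values of 241576 probesets, for which the submitters' processing notes name RMA, Partek and the build mm9; settings and versions are not given in the sources used here. The deposited normalization was kept (array medians 6.22 to 6.27). Probesets naming 1 gene were used (212097, less 590 identical to another of the same gene); 4475 named several and 25004 none. Older symbols were updated through the RefSeq table (GRCm38.p6).

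Groups were compared with limma 3.58.1 (lmFit, eBayes, R 4.3.3) over all genes or all probesets, and exact permutation tests used scipy 1.17.1. Probesets were also tested after subtracting the median of their gene. Keratoacanthoma was compared with all normal skins and, in a 4-group model, with normal double transgenic skin. The members and lists were chosen with earlier results of these data known. Genes named beyond the members are pathway genes past the threshold, at most 2 of each further list, and the 3 most like each member; Nae1, Uba3, Zmiz2, Senp7 and the PIAS genes that did not pass, Krt14 and Krt10 were added after their values were seen. Alternatives covered probeset means, leaving out dim probesets or genes (below the 25th percentile), quantile and median scaling, eBayes with trend, array weights, a block, other normal samples and each array left out. No batch is given in the labels. Some further genes of the pathway are not reported here.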

Additional observations from a re-analysis of the deposited data

Results flagged for a closer look

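In normal skin 2 Sumo2 stood at 9.15, apart from the other 5 skins at 9.51 to 9.69. Senp6 stood at 8.86 in normal skin 1, above the other skins at 8.38 to 8.56. Uspl1, a SUMO protease outside the Senp family, stood at 7.08 in normal skin 5, above the other skins at 6.22 to 6.48. These 3 arrays were apart from their group by Dixon's test at the 95% level, among 32 groups of 5 or 6 arrays tested, of which chance marks about 1 in 20.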

How the results depend on the processing

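For the 6 genes called higher, 137 of 138 alternatives kept the direction and the call. The exception was Senp6 against normal double transgenic skin alone (0.43, limma adjusted p = 0.098), a fit with 4 arrays fewer. In the 4-group model with all arrays Senp6 did not pass against that skin either (0.43, adjusted p = 0.0622). The cause was not tested. The count of members called higher was 5 to 7, where 1942 to 3667 of all genes were. It was 6 with each array left out, where 2406 to 2942 of all genes were. With only normal double transgenic skin the counts over all genes fell to 1942 higher and 1244 lower, against 2959 and 2200, and the other SUMO pathway genes called higher were 5, against 8, as they also were (5) without the arrays high in hair keratins. Against normal double transgenic skin in the 4-group model, leaving out single arrays gave 3 to 7 members, against 5, with 3 without normal skin 2. Member probesets called higher were 18 to 33 with single arrays left out, against 31. They were 18 without keratoacanthoma 5 and 20 without keratoacanthoma 1 or 2. For probesets, the share called over all probesets was not counted in these alternatives. Probesets that changed unlike their gene were 12 without dim probesets, 12 with array weights and 0 with the title number as a replicate block, against 7; the cause was not tested. That block left 6 members, 24 member probesets, 2596 higher and 1716 lower genes, and ended no member's call, but those of Pias3 (-0.56, adjusted p = 0.057) and Nsmce2 (0.43, 0.0658). In the labels same-numbered arrays share a number, and a shared animal or run is not stated. Their deviations correlated at -0.18 to 0.10, and 1 of 5 tumours correlated best with its own number. These values cannot show whether anything else was shared.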
